A study of Mus musculus with 6 samples.

Results

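The genes described here encode the proteins of the mitochondrial ribosome. They were taken by name: every transcript cluster whose single annotated gene symbol begins with Mrpl or Mrps followed by a number, with the cluster of highest mean signal standing for a gene that had several. This gave 77 genes, 48 named for the large subunit (Mrpl) and 29 for the small subunit (Mrps), out of 19933 genes with a symbol of their own. The 77 genes had 85 clusters, and 8 genes had more than 1. A further cluster carried a member's name beside another gene's and was left out.

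The hearts came from mouse embryos at E12.5. One group, labelled heart_WT, was wild type, and the other, labelled heart_KO, was mutant for β1 integrin, the shared β chain of many matrix receptors, encoded by Itgb1. Each group had 3 biological replicates, and each replicate was read on 1 Affymetrix Mouse Gene 1.0 ST array, whose probes are spread along each transcript. The study asked which transcripts differ before the mutant heart shows an overt defect. The labels name no Cre, no strain and no cell type for the deletion, and they do not say whether a replicate was 1 heart or a pool; a replicate is called a heart below. Values are the deposited log2 signals, and a difference is knockout minus wild type on that scale.

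Mitochondria keep a ribosome of their own, which makes only the few respiratory chain proteins that mitochondrial DNA encodes. Its proteins are all encoded in the nucleus, made in the cytosol and imported, and they assemble on mitochondrial rRNA into a large subunit, which joins amino acids, and a small subunit, which reads the mRNA. Some of them descend from bacterial ribosomal proteins and others exist only in mitochondria. The heart depends on this machinery because its muscle cells rely on oxidative phosphorylation as they mature, and inherited defects of several of these proteins cause cardiomyopathy in people.

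Promoters of these genes are known for sites of NRF-1 and of the ETS factor GABP, which serve many nuclear genes of mitochondria. The stretches below show such letters in members that the results turn on, with the match in capitals; they were taken from RefSeq's mouse promoter windows (GRCm38.p6), which held 68 of the 77 genes, and each is written 5′ to 3′ on the gene's strand. Mrpl27, Mrpl3 and Mrps22 hold the ETS letters, and Mrpl44 and Mrpl12 hold the NRF-1 letters.
Mrpl27, chr11:94653716-94653763, + strand: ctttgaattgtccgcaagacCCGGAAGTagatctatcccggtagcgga
Mrpl3, chr9:105053229-105053267, + strand: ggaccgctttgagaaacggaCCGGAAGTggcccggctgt
Mrps22, chr9:98601680-98601710, - strand: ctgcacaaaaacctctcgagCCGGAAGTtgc
Mrpl44, chr1:79775963-79776012, + strand: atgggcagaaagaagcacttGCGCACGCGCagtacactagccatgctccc
Mrpl12, chr11:120484536-120484585, + strand: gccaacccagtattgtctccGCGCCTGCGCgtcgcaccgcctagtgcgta

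In the 250 bases before the start, the ETS letters CCGGAAGT, searched on both strands, were present in 10 of 68 members (14.7%) and in 704 of the 15559 measured genes with a window (4.52%). The NRF-1 letters, GCGCA and GCGC with any base between them, also searched on both strands, were present in 10 of 68 members (14.7%) against 1000 of those 15559 genes (6.43%). No member held both, and 77 of the 15559 genes did. The NRF-1 letters were found for 9 of 42 large subunit genes and 1 of 26 small subunit genes, and the ETS letters for 6 and 4. Members with the ETS letters had a median difference of -0.20 and those without of -0.14; with the NRF-1 letters it was -0.14 and without -0.15. A match describes these letters only and is not a measured binding site.

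Both subunits had lower mean signal in the knockout hearts, by the same small amount. Of the 77 genes 74 were lower by their means and 3 were higher, where 53.5% of all 28767 clusters were lower and 46.5% higher. The median difference was -0.15 for the members, with a range from -0.45 to 0.04, against -0.01 over all clusters and -0.02 over the 14384 clusters at or above the median signal. As a ratio of signals, the largest difference, that of Mrpl41, left 73.3% of the wild-type signal, and no member reached a 1.5-fold difference. This is the value of the Mrpl41 cluster used here, and the gene's other cluster stood at only -0.14 ± 0.11 (SE). No member passed limma's test over all clusters at an adjusted p of 0.05, and the background was 0% of clusters; the smallest adjusted p of a member was 0.797. At an unadjusted p under 0.05 limma gave 7 members lower (9.09%) and 0 higher, where the background was 2.87% lower and 3.06% higher. All 3 knockout hearts lay below all 3 wild-type hearts for 19 members (24.7%), against 6.61% of all clusters, and above them for 0 members, against 6.01%. In whole hearts, fewer cells of a type and less RNA per cell cannot be told apart.

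**Figure D1:**
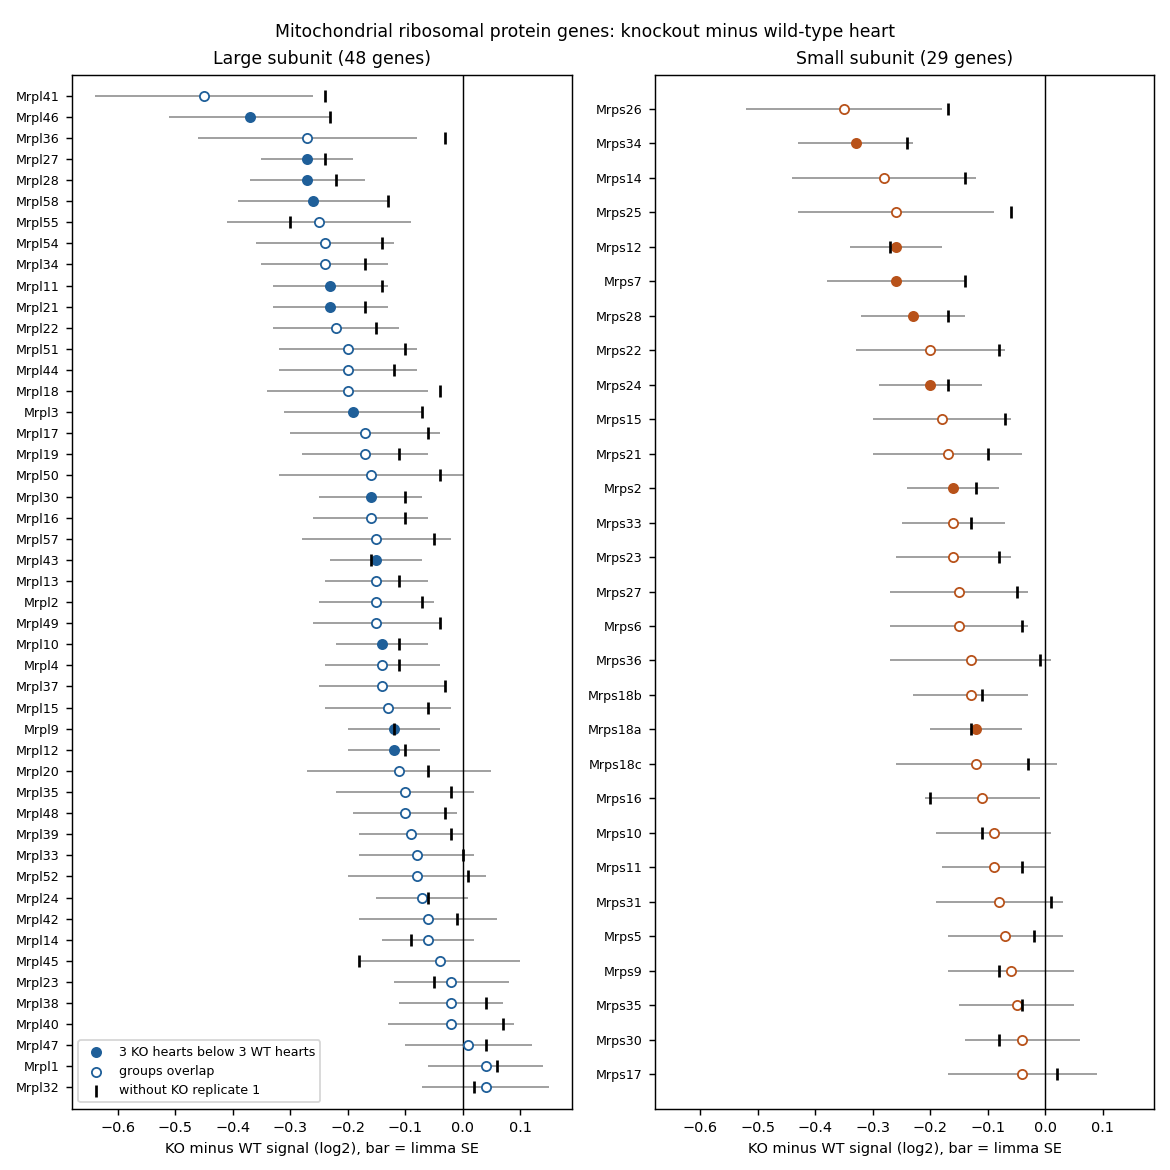
Knockout minus wild-type difference (log2 signal, x axis) of each of the 48 large subunit genes and 29 small subunit genes (y axis), with limma's standard error as a bar, filled points where all 3 knockout hearts lay below all 3 wild-type hearts, and a black tick for the difference without knockout replicate 1. In each panel the points run from -0.45 or -0.35 to near 0, and only Mrpl47, Mrpl1 and Mrpl32 stand right of 0.

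The hearts of a group differed from each other by as much as the groups did. The mean signal over the 77 members was 8.87, 8.85 and 8.72 in wild-type replicates 1 to 3 and 8.53, 8.70 and 8.74 in knockout replicates 1 to 3. Knockout replicate 1 was the lowest heart, and wild-type replicate 3 lay within the range of the other knockout hearts, so the groups overlapped. Knockout replicate 1 held the lowest of the 6 values for 57 members (74.0%), where it did so for 29.6% of all genes with 1 symbol. The highest value lay in wild-type replicate 1 for 38 members and in wild-type replicate 2 for 27. Against each gene's wild-type mean, the median member stood at -0.27 in knockout replicate 1, -0.09 in replicate 2 and -0.07 in replicate 3, and at -0.09 in wild-type replicate 3.

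Without knockout replicate 1 the median difference of the members was -0.08 in place of -0.15, and 69 were lower and 8 higher, where 52.1% of all clusters were lower. For 45 of the 74 lower members the difference was over 1.5 times as large with that heart as without it, or turned sign. Without wild-type replicate 3 all 77 were lower, with a median of -0.20. The count of members at an unadjusted p under 0.05 was 2, 3 and 5 without wild-type replicates 1, 2 and 3, and 3, 8 and 13 without knockout replicates 1, 2 and 3, against 7 with all hearts. The background ran from 1.68% to 4.22% in these fits; without wild-type replicate 1 the members' share, 2.60%, was near its background of 2.18%. The count with no overlap between groups was 19, 23 and 55 without wild-type replicates 1, 2 and 3, and 20, 29 and 35 without knockout replicates 1, 2 and 3, in place of 19. With fewer hearts the share of all clusters rose from 6.61% to 11.2%, 10.7%, 12.7%, 11.1%, 13.0% and 14.4% in the same order.

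**Figure D2:**
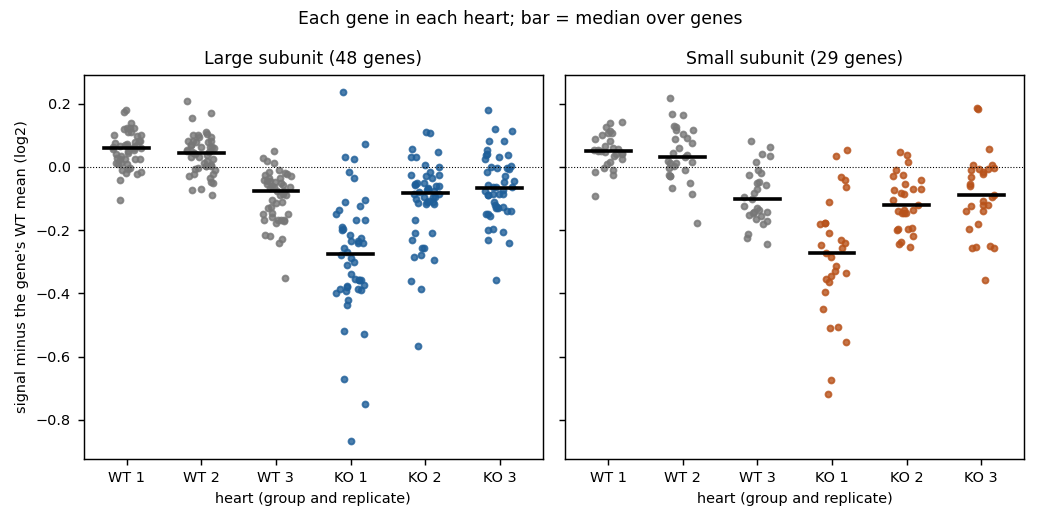
Signal of each gene minus its wild-type mean (log2, y axis) in each of the 6 hearts (x axis), for the 48 large subunit and 29 small subunit genes, with a black bar at the median over genes. Knockout replicate 1 is lowest in each panel, at medians of -0.28 and -0.27, and wild-type replicate 3, at -0.08 and -0.10, lies level with knockout replicates 2 and 3.

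Markers of cell types were read in the same hearts, and only some of them set knockout replicate 1 apart. All 10 measured erythroid markers were higher by their means in the knockout, and 3 of 10 without knockout replicate 1. Their mean signal was 8.55, 8.49 and 8.13 in wild-type hearts and 9.64, 8.24 and 8.34 in knockout replicates 1 to 3, so the heart lowest in mitochondrial ribosomal transcripts was the highest in red cell transcripts; Rhag, a red cell membrane protein gene, was 7.46 there and at most 5.64 in the other hearts. The mean of 10 cushion mesenchyme markers was 9.35, 9.04 and 9.86 in wild-type hearts and 9.36, 9.46 and 9.91 in knockout hearts, highest in replicate 3 of each group. The mean of 14 cardiomyocyte markers was 12.63, 12.62 and 12.58 in wild-type hearts and 12.50, 12.60 and 12.57 in knockout hearts, high in every heart, as the tissue label says, and lowest in knockout replicate 1; 10 of these 14 were lower by their means. Macrophage and leukocyte markers were higher in 11 of 12 cases, with means of 6.68 to 6.78 in the wild-type and 6.85 to 6.98 in the knockout group, and fetal liver markers in 7 of 8, with means of 5.60 to 5.80 and 5.97 to 6.32. Endothelial markers were lower in 8 of 10 cases, with means of 9.65 to 9.74 and 9.57 to 9.61. Smooth muscle and pericyte markers were higher in 6 of 8, with means of 8.61 to 8.98 and 8.80 to 9.37, as were epicardial markers, with means of 8.74 to 8.80 and 8.79 to 8.93. The part of any of these in the members' difference was not tested. Itgb1 itself stood at -0.25 ± 0.09 (log2, SE; limma's adjusted p = 0.797), with the 3 knockout hearts below the wild-type hearts. Array medians lay between 6.65 and 6.71.

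The large and small subunits were then set against each other. Among the 48 large subunit genes 45 were lower and 3 higher, and all 29 small subunit genes were lower. The median difference was -0.15 in each, and the medians differed by 0.00. The mean over the large subunit genes was 8.87 ± 0.08 (log2 signal, SD over 3 hearts) in the wild-type group and 8.72 ± 0.11 in the knockout group, and over the small subunit genes 8.71 ± 0.08 and 8.55 ± 0.11. Within each heart the large subunit mean exceeded the small subunit mean by nearly the same amount, 0.17, 0.17 and 0.16 in wild-type hearts and 0.17, 0.17 and 0.19 in knockout replicates 1 to 3. This gap rests on different probes and is no ratio of subunits, but it shows that the hearts that were low for one subunit were low for the other. No overlap between the groups was seen for 12 of 48 large (25.0%) and 7 of 29 small subunit genes (24.1%), against the background of 6.61%.

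In structures of the mammalian mitochondrial ribosome, Mrps18a and Mrps30 lie in the large subunit in spite of their names. Mrps18a was 9.14, 9.06 and 9.07 in wild-type hearts and 8.98, 8.95 and 8.97 in knockout hearts, a difference of -0.12 ± 0.08. Its knockout hearts all lay below the wild-type hearts, and it was the member of this pair with the narrower spread. Mrps30 was 8.43, 8.49 and 8.24 in wild-type hearts and 8.42, 8.24 and 8.38 in knockout hearts, with full overlap and a difference of -0.04 ± 0.10. Moving both to the large subunit left the medians at -0.15 and -0.16.

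The catalytic heart of the large subunit is its peptidyl transferase centre, and 5 genes for proteins that surround it were all lower, with a median of -0.16, or -0.10 without knockout replicate 1. Mrpl27 (transcript cluster 10454093), the homologue of bacterial L27, which reaches towards the bound tRNAs, had the lowest p of all members. Its signal was 9.07, 9.09 and 9.02 in wild-type hearts and 8.72, 8.78 and 8.86 in knockout replicates 1 to 3. Every knockout heart was below every wild-type heart, and the difference of -0.27 ± 0.08 (SE) was -0.24 without knockout replicate 1, yet limma's adjusted p was 0.797. Its second cluster was also lower, at 8.06, 8.21 and 8.04 against 7.63, 7.82 and 7.88, a difference of -0.33 ± 0.10 with no overlap. Whether these clusters read separate sequences was not checked, so they are not independent measurements here. Mrpl3, the homologue of L3 and a gene mutated in human cardiomyopathy, was 9.44, 9.43 and 9.41 in wild-type hearts and 8.99, 9.35 and 9.35 in knockout hearts. Its groups did not overlap, but its difference of -0.19 ± 0.12 was -0.07 without knockout replicate 1. Mrpl2, Mrpl4 and Mrpl16, homologues of L2, L4 and L16, differed by -0.15, -0.14 and -0.16 with overlap.

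The stalk of the large subunit recruits translation factors. Of its 5 listed genes, 4 were measured with a symbol of their own, and all 4 were lower, with a median of -0.18, or -0.13 without knockout replicate 1. Mrpl11, at the base of the stalk, was 9.42, 9.36 and 9.41 in wild-type hearts and 9.01, 9.30 and 9.20 in knockout hearts. The knockout hearts were all lower, the wild-type hearts lay close together, and the difference was -0.23 ± 0.10 (adjusted p = 0.797 in limma), or -0.14 without knockout replicate 1. Mrpl10, which anchors the L12 proteins, was 9.46, 9.43 and 9.39 against 9.23, 9.36 and 9.27, and Mrpl12, the stalk protein itself, was 9.45, 9.43 and 9.40 against 9.26, 9.34 and 9.30. Neither gene's groups overlapped, and their differences of -0.14 ± 0.08 and -0.12 ± 0.08 were -0.11 and -0.10 without knockout replicate 1. Mrpl54, a mitochondrial addition at the stalk, differed by -0.24 ± 0.12, or -0.14 without knockout replicate 1, and its knockout replicate 2 at 8.68 overlapped the lowest wild-type heart at 8.64.

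Genes for proteins around the mouth of the exit tunnel, where the new chain meets the inner membrane, had a median difference of -0.06 over 6 genes, with overlap between the groups in each. Their median without knockout replicate 1 was again -0.06, beside -0.08 for all members. Mrpl45, which holds the ribosome to the membrane, was 8.65, 8.63 and 8.47 in wild-type hearts and 8.82, 8.29 and 8.51 in knockout hearts. Knockout replicate 1, the lowest heart for most members, was the highest for this gene; the difference was -0.04 ± 0.14 with it and -0.18 without it. Mrpl22 stood at -0.22 and Mrpl17 at -0.17, below the median of all members, and at -0.15 and -0.06 without that heart. Mrpl24 stood at -0.07, Mrpl23 at -0.02 and Mrpl47 at 0.01. Whether the exit tunnel genes differ from the other members was not tested.

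**Figure D3:**
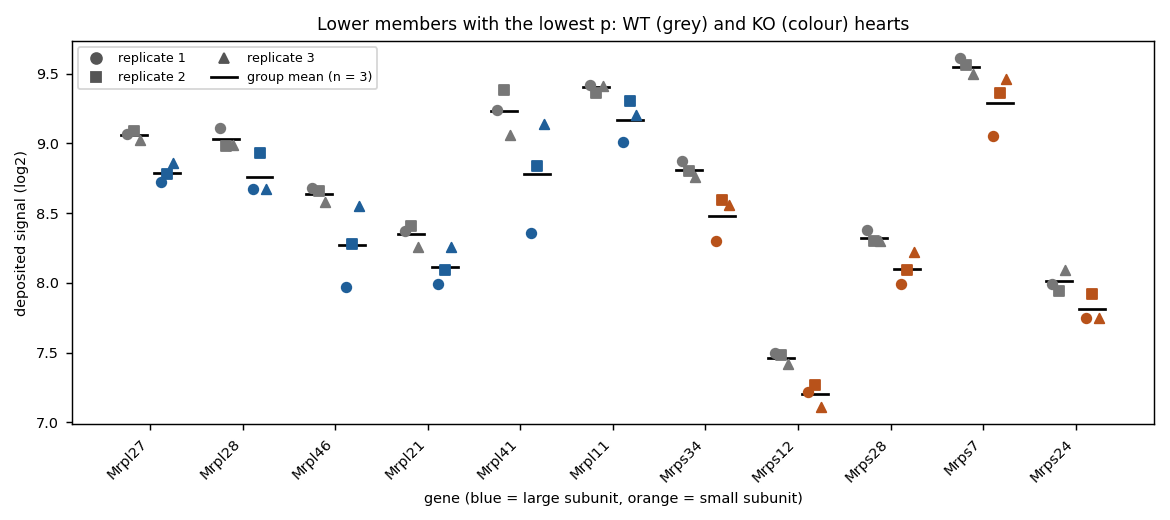
Deposited log2 signal (y axis) of the 6 large subunit and 5 small subunit genes of lowest p among the lower members (x axis), with wild-type hearts in grey, knockout hearts in colour, marker shape for the replicate and a bar at the group mean (n = 3). Except for Mrpl41, all knockout hearts of a gene lie below its wild-type hearts, and knockout replicate 1 is the lowest heart for most.

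Of the remaining large subunit genes with the lowest p, Mrpl28, a homologue of bacterial L28, was 9.11, 8.98 and 8.99 in wild-type hearts and 8.67, 8.93 and 8.67 in knockout hearts. The groups did not overlap, though knockout replicate 2 came close to the wild-type hearts, and the difference was -0.27 ± 0.10. Mrpl46, found only in mitochondria, was 8.68, 8.66 and 8.58 in wild-type hearts and spread over 7.97, 8.28 and 8.55 in knockout hearts, where its SD was 0.29 against 0.05. Its difference was -0.37 ± 0.14, and -0.23 without knockout replicate 1. Mrpl21, a homologue of L21, was 8.37, 8.41 and 8.26 against 7.99, 8.09 and 8.26, a difference of -0.23 ± 0.10. Before rounding its highest knockout heart lay just under its lowest wild-type heart. Mrpl41, another mitochondrial addition, had the largest difference of all members, -0.45 ± 0.19, with overlap. Without knockout replicate 1 it was -0.24, and the largest was then that of Mrpl55, -0.30. Mrpl41 was 9.24, 9.38 and 9.06 in wild-type hearts and 8.36, 8.84 and 9.14 in knockout hearts, and its second cluster stood at -0.14 ± 0.11.

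The 3 genes that were higher by their means were Mrpl1, Mrpl32 and Mrpl47, with homologues in the bacterial ribosome. Mrpl1 was 8.36, 8.37 and 8.14 in wild-type hearts and 8.32, 8.23 and 8.47 in knockout hearts, and Mrpl32 was 8.20, 8.18 and 7.85 against 8.15, 8.05 and 8.16. In each the groups overlapped and the low value was that of wild-type replicate 3; the differences were 0.04 ± 0.10 and 0.04 ± 0.11. Mrpl47 was 7.64, 7.61 and 7.30 against 7.48, 7.49 and 7.63, also with overlap, and stood at 0.01 ± 0.11, while its second cluster gave 6.90, 6.67 and 6.69 against 6.59, 6.60 and 6.25, at -0.27 ± 0.12. The signs of these 3 genes turned without wild-type replicate 3 and with weighted arrays.

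The other 26 large subunit genes had differences from -0.27 to -0.02. Those between -0.27 and -0.20 were Mrpl36, Mrpl58, Mrpl55, Mrpl34, Mrpl51 and Mrpl18. Mrpl36, a small homologue of L36, shows how far 1 heart can set a value: it was 9.35, 9.32 and 9.20 in wild-type hearts and 8.54, 9.19 and 9.33 in knockout hearts, so the difference of -0.27 was -0.03 without knockout replicate 1. Mrpl55 was the opposite case, with knockout replicate 2 lowest at 8.51 and a difference of -0.25 that was -0.30 without replicate 1. Mrpl58, a peptidyl-tRNA hydrolase built into the ribosome, was 8.82, 8.62 and 8.69 against 8.19, 8.60 and 8.57, with no overlap, and its difference of -0.26 was -0.13 without knockout replicate 1. Mrpl43, Mrpl30 and Mrpl9 had differences of -0.15, -0.16 and -0.12, again with no overlap. The nearest to 0 were Mrpl38 and Mrpl40, at -0.02 each.

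In the small subunit the lowest p belonged to Mrps34 (transcript cluster 10442638), a mitochondrial addition, at 8.87, 8.80 and 8.76 in wild-type hearts and 8.30, 8.59 and 8.56 in knockout hearts. All knockout hearts were lower, and the difference was -0.33 ± 0.10, or -0.24 without knockout replicate 1. Mrps12, the homologue of the decoding protein S12, was 7.50, 7.48 and 7.42 in wild-type hearts and 7.22, 7.27 and 7.11 in knockout hearts. Its knockout replicate 3, not replicate 1, was lowest, so that its difference of -0.26 ± 0.08 (limma's adjusted p = 0.797) was -0.27 without replicate 1. Mrps28 was 8.38, 8.30 and 8.30 against 7.99, 8.09 and 8.22, and Mrps24, a homologue of S3, which lies where the mRNA enters, was 7.99, 7.94 and 8.09 against 7.75, 7.92 and 7.75. Both had no overlap, with differences of -0.23 ± 0.09 and -0.20 ± 0.09. Mrps7, a homologue of S7 in the head of the subunit, was 9.61, 9.56 and 9.50 in wild-type hearts and 9.05, 9.36 and 9.46 in knockout hearts. It too had no overlap, and its difference of -0.26 ± 0.12 was -0.14 without knockout replicate 1.

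The other small subunit genes ran from -0.35 to -0.04. Mrps26 had the largest difference of the subunit, -0.35, at 9.33, 9.01 and 9.22 in wild-type hearts and 8.47, 9.04 and 8.99 in knockout hearts, with overlap and -0.17 without knockout replicate 1. Mrps25 was 7.28 in knockout replicate 1 and 7.88 and 7.90 in the others, beside 8.04, 7.95 and 7.87 in wild-type hearts, and its difference went from -0.26 to -0.06 without that heart. Mrps2, the homologue of S2, was 8.63, 8.66 and 8.63 against 8.40, 8.57 and 8.46, with no overlap. Mrps36, which is now held to belong to the oxoglutarate dehydrogenase complex and not to the ribosome, stood at -0.13, and Mrps17, at -0.04, was nearest to 0 with Mrps30.

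The genes mutated in human cardiomyopathy that were listed here, Mrpl3, Mrpl44, Mrps14 and Mrps22, had a median of -0.20, and of -0.10 without knockout replicate 1. Mrpl44, which resembles RNase III, was 8.47, 8.44 and 8.26 in wild-type hearts and 8.01, 8.18 and 8.36 in knockout hearts. Mrps14 was 8.38, 8.60 and 8.17 against 7.83, 8.13 and 8.36, and Mrps22 was 8.75, 8.80 and 8.58 against 8.26, 8.68 and 8.57. In these 3 the groups overlapped, and their differences of -0.20 ± 0.12, -0.28 ± 0.16 and -0.20 ± 0.13 had adjusted p-values of 0.797 in limma. They were -0.12, -0.14 and -0.08 without knockout replicate 1.

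Members with and without a bacterial homologue were both lower in the knockout hearts, and the difference between them was not tested. Large subunit genes with a bacterial homologue were lower in 27 of 30 cases, with a median of -0.15, and those found only in mitochondria, Mrps18a and Mrps30 among them, in 19 of 19, with a median of -0.14. In the small subunit the counts were 16 of 16 and 11 of 11, with a median of -0.16 for each. Without knockout replicate 1 the medians were -0.09 and -0.05 in the large and -0.10 and -0.08 in the small subunit, so each was smaller in size than with that heart. The groups did not overlap for 9 of 30 genes with a bacterial homologue and 3 of 19 without (15.8%) in the large subunit, against 6.61% of all clusters. In the small subunit they did not overlap for 5 of 16 (31.2%) and 1 of 11 (9.09%), the last being near that background.

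Genes that work with the mitochondrial ribosome were measured beside it. Of 5 further proteins that sit on it or at its exit under other names, all were lower, with a median of -0.08. Gadd45gip1, a large subunit protein, was 7.92, 8.42 and 8.24 in wild-type hearts and 7.47, 7.86 and 7.75 in knockout hearts, and Chchd1, a small subunit protein, was 8.38, 8.56 and 8.38 against 8.16, 8.29 and 8.23. Both had no overlap, at -0.50 ± 0.15 and -0.22 ± 0.09, while the small subunit gene Dap3 stood at -0.08. Of 24 genes of ribosome assembly and rRNA modification, 23 were lower and 1 higher, with a median of -0.13. The rRNA methyltransferase gene Mrm3 was 7.86, 7.68 and 7.68 against 7.39, 7.48 and 7.48, a difference of -0.29 ± 0.09 with no overlap that was -0.27 without knockout replicate 1. The pseudouridine synthase genes Trub2 and Rpusd4 stood at -0.32 and -0.24, also with no overlap, and at -0.19 and -0.17 without that heart.

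Of 14 mitochondrial translation factor genes 13 were lower and 1 higher, with a median of -0.13. Tsfm, the elongation factor that recharges its partner Tufm, was 8.79, 8.85 and 8.66 in wild-type hearts and 8.30, 8.52 and 8.55 in knockout hearts, lower in each knockout heart, at -0.31 ± 0.10. Slirp, which protects mitochondrial mRNA, stood at -0.27 and Taco1, an activator of translation, at -0.28, while Tufm itself stood at -0.16. Tsfm, Slirp, Taco1 and Tufm stood at -0.23, -0.19, -0.13 and -0.08 without knockout replicate 1. Of 16 mitochondrial aminoacyl-tRNA synthetase genes 15 were lower and 1 higher, with a median of -0.13; Mars2, Sars2 and Tars2 stood at -0.33, -0.26 and -0.29, each with no overlap, and at -0.20, -0.18 and -0.18 without that heart. None of the genes in these lists passed limma's test over all clusters. At an unadjusted p under 0.05 there were 2 of 5, 2 of 24, 2 of 14 and 3 of 16, all lower, against the background of 2.87%. Without knockout replicate 1 the 4 medians were -0.09, -0.07, -0.06 and -0.09. The genes lower were then 4 of 5, 18 of 24, 11 of 14 and 11 of 16, where 52.1% of all clusters were lower.

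The genes that copy and transcribe mitochondrial DNA and those that regulate mitochondrial biogenesis act further upstream. Of 10 genes of mitochondrial DNA transcription and replication, 9 were lower and 1 higher, with a median of -0.08 and no gene without overlap; Tefm, a transcription elongation factor, stood at -0.21, the polymerase gene Polg at -0.15 and the RNA polymerase gene Polrmt at -0.13. This list's median was -0.05 without knockout replicate 1, with 6 lower and 4 higher. Tefm, Polg and Polrmt then stood at -0.12, -0.19 and -0.04. Of 9 regulators of mitochondrial biogenesis 5 were lower and 4 higher, with a median of -0.02. This direction turned without knockout replicate 1, to 3 lower, 6 higher and a median of 0.04. Esrra, an orphan nuclear receptor, was 8.68, 8.54 and 8.58 in wild-type hearts and 8.40, 8.50 and 8.19 in knockout hearts, lower in each knockout heart at -0.24 ± 0.10. The coactivator gene Ppargc1a was 10.00, 9.99 and 9.82 against 10.42, 10.01 and 9.90, highest in knockout replicate 1, so its difference of 0.17 was 0.02 without that heart. Myc stood at 0.15. Transcripts of mitochondrial DNA, which this ribosome translates, were looked up by symbol, and none was matched to a cluster.

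For comparison, 61 genes were taken by name as cytosolic ribosomal proteins, like-named genes such as Rpl7l1 among them. They had 35 lower and 26 higher means and a median of 0.00. Their mean signal was 10.95, 10.93 and 10.94 in wild-type hearts and 10.93, 10.96 and 10.95 in knockout hearts, so that knockout replicate 1 did not stand apart for them. A further 34 genes were taken by name as subunits of respiratory complex I, and their proteins are also made in the cytosol and imported. These genes were lower in 32 cases and higher in 2, with a median of -0.13. Their mean was 10.14, 10.12 and 9.97 in wild-type hearts and 9.85, 10.00 and 9.98 in knockout hearts, with the same order of hearts at the bottom, knockout replicate 1, and at the top, wild-type replicate 1, as the mitochondrial ribosome. Without knockout replicate 1, 29 of the 34 complex I genes were lower, with a median of -0.10. With all hearts, the knockout hearts lay below all wild-type hearts for 8 of the 34 (23.5%) and above them for 0. That share is close to the 24.7% of the members, against 6.61% of all clusters. Among the 61 cytosolic genes 1 lay below (1.64%) and 3 lay above (4.92%). No test was made between these lists.

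**Figure D4:**
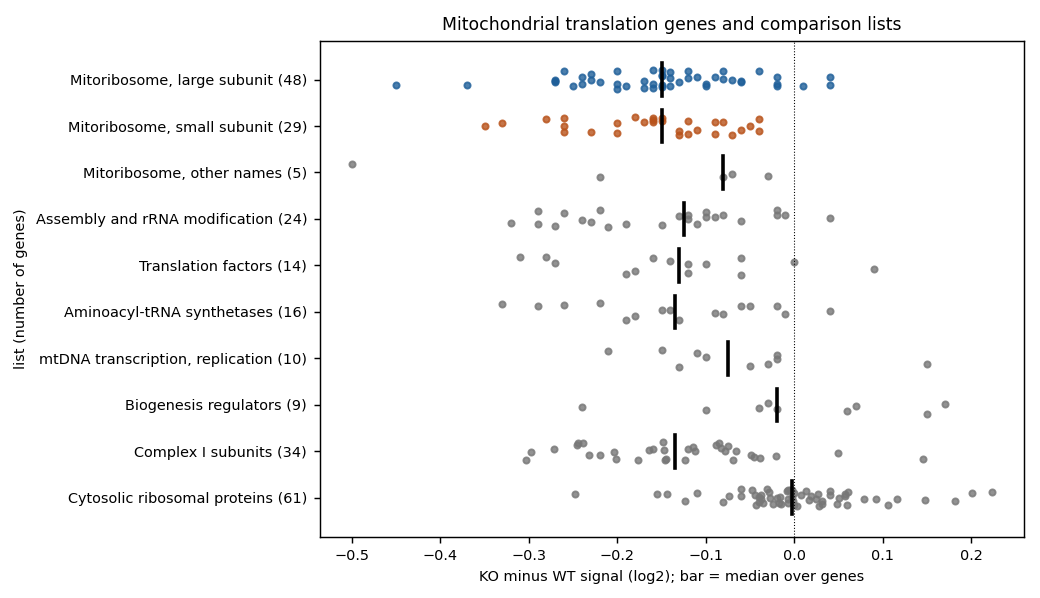
Knockout minus wild-type difference (log2 signal, x axis) of each gene in 10 lists (y axis, with the number of genes), and a bar at each list's median. The lists of mitochondrial translation have medians from -0.15 to -0.08, complex I has -0.13, and the cytosolic ribosomal proteins and the biogenesis regulators stand at 0.00 and -0.02.

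Many members share a start region with another gene that runs the opposite way. Such a neighbour, with its start within 1000 bases, was found for 24 of 68 members (35.3%) and for 1377 of 15004 measured protein-coding genes (9.18%). The 21 measured neighbours that are not members themselves had a median difference of -0.02, with 13 lower (61.9%), 8 higher and 1 with no overlap (4.76%). The 1302 measured neighbours of all genes had a median of -0.05, with 891 lower (68.4%), 411 higher and 141 with no overlap (10.8%). That 1 was Sars2, the mitochondrial seryl-tRNA synthetase gene opposite Mrps12, at 8.16, 8.16 and 8.14 in wild-type hearts and 7.73, 8.05 and 7.90 in knockout hearts. Both genes of this pair stood at -0.26, and at -0.27 and -0.18 without knockout replicate 1, with 146 bases between their starts. Mrpl46 and Mrps11 are both members and lie opposite each other, 41 bases apart, at -0.37 and -0.09. These 2 stretches between the starts are shown for the pair whose neighbour had no overlap and the pair made of members; they were chosen after their values were seen, and neither stretch holds the ETS or NRF-1 letters.
Mrps12 to Sars2, GRCm38.p6, chr7:28741822-28741967, - strand: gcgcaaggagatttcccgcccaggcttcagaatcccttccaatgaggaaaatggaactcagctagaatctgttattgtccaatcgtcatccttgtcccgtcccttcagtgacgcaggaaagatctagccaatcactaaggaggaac
Mrpl46 to Mrps11, GRCm38.p6, chr7:78783090-78783130, - strand: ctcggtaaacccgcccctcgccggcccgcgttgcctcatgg
Some other pairs are given here by the cluster used for the member, and differences within pairs were not tested. Pnpla7 was at -0.04 opposite Mrpl41 at -0.45, whose second cluster stood at -0.14. Ighmbp2 was at 0.04 opposite Mrpl21 at -0.23, and Eme1 at -0.10 opposite Mrpl27 at -0.27. Twnk, the mitochondrial DNA helicase gene, was at -0.02 opposite Mrpl43 at -0.15. The complex I gene Ndufb5 was at -0.08 opposite Mrpl47 at 0.01, whose second cluster stood at -0.27. Which of a gene's clusters lies at the shared start was not checked.

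Among the 8 members with several clusters, both clusters of Mrps33 stood at -0.16, those of Mrps36 at -0.13 and -0.12, those of Mrpl23 at -0.02 and -0.03, and those of Mrps5 at -0.07 and -0.13. Those of Mrpl51 stood at -0.20 and -0.06. The median standard error was 0.107 over the members and 0.111 over all clusters. Every member had a mean signal above the median of all clusters, 6.67, with means from 6.82 to 10.91.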

How the data were processed

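The file held log2 signals for 28767 transcript clusters on 6 arrays, deposited by the authors after RMA (background correction, a common distribution for all arrays, probes summarised per cluster), per the submitters' processing notes. Not given in the sources used here are the RMA version, probe annotation and genome build. GEO's platform annotation gave 1 symbol to 21776 clusters. All 77 members matched GRCm38.p6 by Entrez identifier. The groups were compared with limma 3.58.1 in R 4.3.3 (lmFit, eBayes, two-sided, no covariate, no filter), with Benjamini-Hochberg adjustment over all clusters. The fit was tested on simulated data. The labels do not say whether hearts came from separate litters, so p-values measure only the spread between these samples.

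The members and lists were chosen with earlier results of these data known, so lists are given by counts and medians with no test. Values on every array were given for the 6 lower and 3 higher large subunit genes and the 5 lower small subunit genes of lowest p (no small subunit gene was higher); structural lists, Mrps18a, Mrps30, up to 3 genes per pathway list and Itgb1 were also fixed. Mrpl36, Mrpl55, Mrpl58, Mrpl43, Mrpl30, Mrpl9, Mrps26, Mrps25, Mrps2, Tufm, Rhag and other genes outside this rule were named after their values were seen. Over all clusters, same-numbered hearts did not vary together (correlations of deviations -0.0425, -0.0262 and -0.0558), and the main fit did not pair them. This cannot exclude a litter or batch shared by hearts of the same number. Cushion mesenchyme markers, for example, were highest in replicate 3 of each group.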

Additional observations from a re-analysis of the deposited data

How the results depend on the processing

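No member was called by limma in any of 15 other fits (dim clusters removed, a single cluster or the cluster mean per gene, repeated quantile, cyclic loess or median scaling, a trended robust variance, weighted arrays, replicate blocks and each heart left out), and 0 members passed 1.5-fold. The number of members lower was 69 to 77 with a heart left out and 72 to 75 otherwise; 62 members were lower in every fit that held them. The large subunit median was -0.18 to -0.08 with a heart left out and -0.16 to -0.11 otherwise, and the small subunit median -0.21 to -0.08 and -0.16 to -0.12. The gap between these medians, large minus small, was 0.02 with array weights, 0.01 with Mrps18a and Mrps30 moved, and -0.03 to 0.03 with a heart left out. With the replicate number as a block, 74 members were lower, the medians were -0.15 and no call changed. No scaling moved the median of all clusters by over 0.02.

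Among the 31 members named by the fixed rule above, 6 turned sign in some fit. Some members named outside that rule turned sign too. Mrpl38, Mrpl40 and Mrps17, for example, stood at 0.04, 0.07 and 0.02 without knockout replicate 1. In the main fit they stood at -0.02, -0.02 and -0.04. With array weights Mrpl1, Mrpl32 and Mrpl47 each stood at -0.05, and with clusters averaged Mrpl47 stood at -0.13. With hearts left out in turn, Mrpl1 ran from -0.03 to 0.10, Mrpl32 ran from -0.07 to 0.10, Mrpl47 ran from -0.10 to 0.07, Mrpl23 ran from -0.11 to 0.04, Mrpl45 ran from -0.18 to 0.08 and Mrps30 ran from -0.11 to 0.01. The causes were not tested. With 3 arrays a group, precision is limited, and scanner signals over background were not used here.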
